A study of Mus musculus with 28 samples.

Results

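Trp53, which encodes the transcription factor p53, and 9 genes that p53 is known to activate were followed through bulk RNA, single-cell RNA and open chromatin of skeletal stem and progenitor cells. The set was fixed by name as Trp53, Mdm2, Ccng1, Gadd45a, Gdf15, Phlda3, Zmat3, Sesn1, Sesn2 and Trp53inp1, which is 10 of the 53801 genes listed in the bulk RNA tables. The rule went by gene name and set no threshold on a measured value. All 10 genes had enough counts to be tested in both bulk populations.

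The study deleted Zmpste24 (Z24), which encodes the protease that finishes the maturation of prelamin A, in the limb mesenchyme of mice. Loss of this enzyme is a known cause of premature aging with a misshapen nuclear lamina. Bulk RNA-seq and ATAC-seq were made from td-Tomato+ cells sorted from the growth plate (gpSSPCs, which the study sorted as CD73+) and from the periosteum (pSSPCs, sorted as Sca1+) of 20-week-old mice, with 3 control and 3 CKO libraries per population and assay. The labels give these 24 bulk libraries the same genotype, PrxCre; Z24fl/fl, and the titles alone separate control from CKO, so the genotype of the bulk controls is not stated. The single-cell libraries were made from td-Tomato+ cells of bone marrow and bone, 1 library per group. At 16 weeks there was a control (PrxCre; Z24fl/+) and a CKO (PrxCre; Z24fl/fl), and at 8 weeks an Osx-Cre and a Prx1-Cre library whose labels also name Z24fl/fl. The paper names the 8-week mice by their Cre and reporter alone, without a Z24 allele, so their Z24 genotype is uncertain here. Prx1-Cre acts in limb mesenchyme and its descendants and Osx-Cre in the osteoblast lineage, so every population here was already selected by its Cre history. The labels name no individual mice, and p-values therefore measure the spread between libraries.

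p53 is held at a low level by Mdm2, an E3 ubiquitin ligase whose gene p53 itself turns on, which closes a feedback loop. After DNA damage or other stress p53 is released from Mdm2, binds DNA as a tetramer and activates genes for cell cycle arrest, DNA repair, metabolic restraint and, under sustained stress, apoptosis. In cells with a defective nuclear lamina this pathway is known to be engaged, and in mesenchymal progenitors it is linked to senescence. Because p53 is controlled mainly through the stability of its protein, the RNA of its targets is the usual readout at the transcript level.

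The promoter sequences of the genes with the p53 motif near their start sites are shown first, since the accessibility at these windows is described further on. RefSeq promoter windows (GRCm38.p6, 250 bases before to 50 bases after each start) were found for 8 of the 10 genes, 10 windows in all. The p53 decamer, the 10-base element that p53 dimers bind, was searched by name with no mismatch allowed. The element is its own reverse complement, so both strands were covered. It occurred in 5 of the 10 windows (50%), against 8.36% of all 32851 promoter windows. A full site of 20 bases, made of adjoining decamers with no spacer and with up to 3 mismatches, occurred in 1 of the 10 windows and in 0.572% of all windows. These matches describe letters only. Each sequence below runs 5′ to 3′ along the gene's own strand, and the capitals mark the decamer, or the full site where there is one.
Mdm2, chr10:117710709-117711008, minus strand, decamer beginning 186 bases before the start: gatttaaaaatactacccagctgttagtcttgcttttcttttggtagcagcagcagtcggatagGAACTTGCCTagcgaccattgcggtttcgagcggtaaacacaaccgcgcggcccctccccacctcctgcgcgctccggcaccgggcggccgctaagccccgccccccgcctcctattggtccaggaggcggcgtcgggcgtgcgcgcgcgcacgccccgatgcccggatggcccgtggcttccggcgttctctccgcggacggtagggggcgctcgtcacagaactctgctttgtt
Ccng1, chr11:40755237-40755536, minus strand, decamer beginning 185 bases before the start: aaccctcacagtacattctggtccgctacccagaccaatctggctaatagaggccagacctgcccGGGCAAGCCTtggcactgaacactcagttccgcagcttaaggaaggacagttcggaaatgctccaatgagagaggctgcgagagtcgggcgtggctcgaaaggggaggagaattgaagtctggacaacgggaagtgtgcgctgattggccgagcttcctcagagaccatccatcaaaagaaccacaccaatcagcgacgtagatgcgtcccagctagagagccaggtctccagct
Gadd45a, chr6:67037358-67037657, minus strand, decamer beginning 40 bases before the start: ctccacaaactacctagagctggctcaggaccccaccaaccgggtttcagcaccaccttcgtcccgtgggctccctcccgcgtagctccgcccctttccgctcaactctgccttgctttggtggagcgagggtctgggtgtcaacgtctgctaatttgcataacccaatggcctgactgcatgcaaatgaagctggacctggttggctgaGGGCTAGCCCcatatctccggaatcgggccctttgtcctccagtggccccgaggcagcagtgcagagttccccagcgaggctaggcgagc
Trp53, chr11:69580109-69580408, plus strand, full site with 3 mismatches beginning 75 bases before the start: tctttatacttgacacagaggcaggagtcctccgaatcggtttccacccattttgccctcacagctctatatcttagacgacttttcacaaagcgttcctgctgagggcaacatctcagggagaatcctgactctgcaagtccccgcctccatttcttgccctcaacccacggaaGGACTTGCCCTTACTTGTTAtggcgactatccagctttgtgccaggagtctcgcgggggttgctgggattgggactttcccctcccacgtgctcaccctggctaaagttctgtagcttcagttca

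The remaining decamer lay in the second Sesn1 window, AAGCTTGTTT, 173 bases before that start. The Gdf15, Phlda3 and Sesn2 windows held none. Cdkn1a, which encodes the cell cycle inhibitor p21 and is the best known p53 target, was not among the 10 genes but is given beside them as a reference. Its upstream start, of the 5 windows printed here, had the match closest to a perfect full site.
Cdkn1a, chr17:29090729-29091028, plus strand, decamer 73 bases and full site with 1 mismatch 51 bases before the start: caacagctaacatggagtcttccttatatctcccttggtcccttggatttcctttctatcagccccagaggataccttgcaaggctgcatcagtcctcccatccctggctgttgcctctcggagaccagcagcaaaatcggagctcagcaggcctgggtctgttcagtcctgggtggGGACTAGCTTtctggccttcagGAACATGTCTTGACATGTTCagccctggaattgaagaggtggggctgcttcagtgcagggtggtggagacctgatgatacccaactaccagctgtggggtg

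Before the results, the libraries were checked against their labels. The bulk RNA libraries held between 1333260 and 5315709 deduplicated counts. Replicates 2 and 3 of every group lay close together. Over genes of 5 to 99 counts they differed by no more than sampling noise, with a chi-square divided by its degrees of freedom of 0.82 to 0.98, whereas either of them against replicate 1 gave 10.1 to 13.1. Genes of at least 20 counts gave 1.59 to 1.92 for this pair, which is more than such noise, and 53.2 to 71.5 for the pairs with replicate 1. They may be separate samples or repeats of 1 sample, and they were summed and counted as 1 sample, which leaves n = 2 per group, with each library as a sample as an alternative. Replicate 1 stood apart in all 4 groups, with 12082 to 12465 genes detected at equal counts against 14279 to 15307 in the other libraries. The share of counts from mitochondrial genes was 2.4% to 3.86% in replicate 1, highest in CKO pSSPCs (2.85% in their control), and 1.29% to 1.79% in the other libraries, and its part in the p53 values was not tested. Marker sums also stood apart in replicate 1. Summed osteoblast markers reached 60600 CPM (counts scaled to a TMM-adjusted library total of 1000000) in control and 60100 in CKO gpSSPC replicate 1, against 16900 to 22700 in the other 4 gpSSPC libraries, and summed erythroid markers were 21.2 and 18.2 CPM against 2810 to 6710. Ibsp, which encodes bone sialoprotein, gave 48600 of the 60600 CPM in the control, where 5 of the 7 osteoblast markers (Bglap, Bglap2, Ifitm5, Sp7 and Dmp1) were below their values in control replicates 2 and 3. The part of these marker differences in the p53 values below was not tested.

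The sorted populations matched their markers. Acan, a cartilage matrix gene, was higher in gpSSPCs by 2.95 on the log2 scale (edgeR, adjusted p = 0.0200), and Nt5e, which encodes CD73, by 2.17 (adjusted p = 0.0498). Ly6a, which encodes Sca1, had a log2 difference of gpSSPCs to pSSPCs of -1.80 with an adjusted p of 0.183, and it remained present in gpSSPCs at 308 to 859 CPM. Zmpste24 itself read 4.77, 15 and 16.2 CPM in control and 1.17, 8.34 and 7.57 CPM in CKO gpSSPCs. In pSSPCs it read 0.853, 15.9 and 16.3 CPM in control and 0, 7.82 and 7.14 CPM in CKO. Within each replicate the CKO value was the lower, yet the groups overlapped because replicate 1 was low throughout, and neither difference passed the test (edgeR, adjusted p = 1 for both). In replicate 1 the order rested on 1 count in control and 0 in CKO pSSPCs, too few to compare, and on 11 and 2 in gpSSPCs. The Cre removes exon 6, and gene counts also take reads from the other exons, so the level is a partial check only.

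In gpSSPCs, 8 of the 10 genes had a fitted log2 fold change above 0 in CKO, with a median of 0.24, but no gene of the set passed the test and only Phlda3 was higher in every CKO library. In the same contrast 50.2% of all genes were above 0, with a median of 0. In pSSPCs, 9 of the 10 were above 0, with a median of 0.55 against -0.02 for all genes and 48.7% of all genes above 0. Trp53 and Mdm2 were there the members whose CKO libraries all lay above the controls. Of all genes, 6.54% in gpSSPCs and 9.13% in pSSPCs had all CKO libraries above all controls. By edgeR no gene of the genome passed an adjusted p of 0.05 in gpSSPCs (0% of 12041 genes), in pSSPCs (0% of 11878) or in the test of whether the CKO effect differed between the populations (0% of 13173), and DESeq2 called 1, 0 and 0 genes. Where the fit also held a term for the replicate pair, 12, 38 and 2 genes passed, none of them a member of the set. In the fit without that term, at an unadjusted p under 0.05, 0.307% of genes were higher and 0.166% lower in gpSSPC CKO, and 0.261% higher and 0.935% lower in pSSPC CKO. None of the 10 genes was among these. With 1 sample of each group resting on replicate 1, the standard errors of the members in this fit were 0.44 to 1.96 on the log2 scale. With the replicate term, Phlda3 in gpSSPCs and Gdf15 in pSSPCs had an unadjusted p under 0.05, as given below. There 3.85% of all genes in gpSSPCs and 5.24% in pSSPCs did, in either direction.

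**Figure D1:**
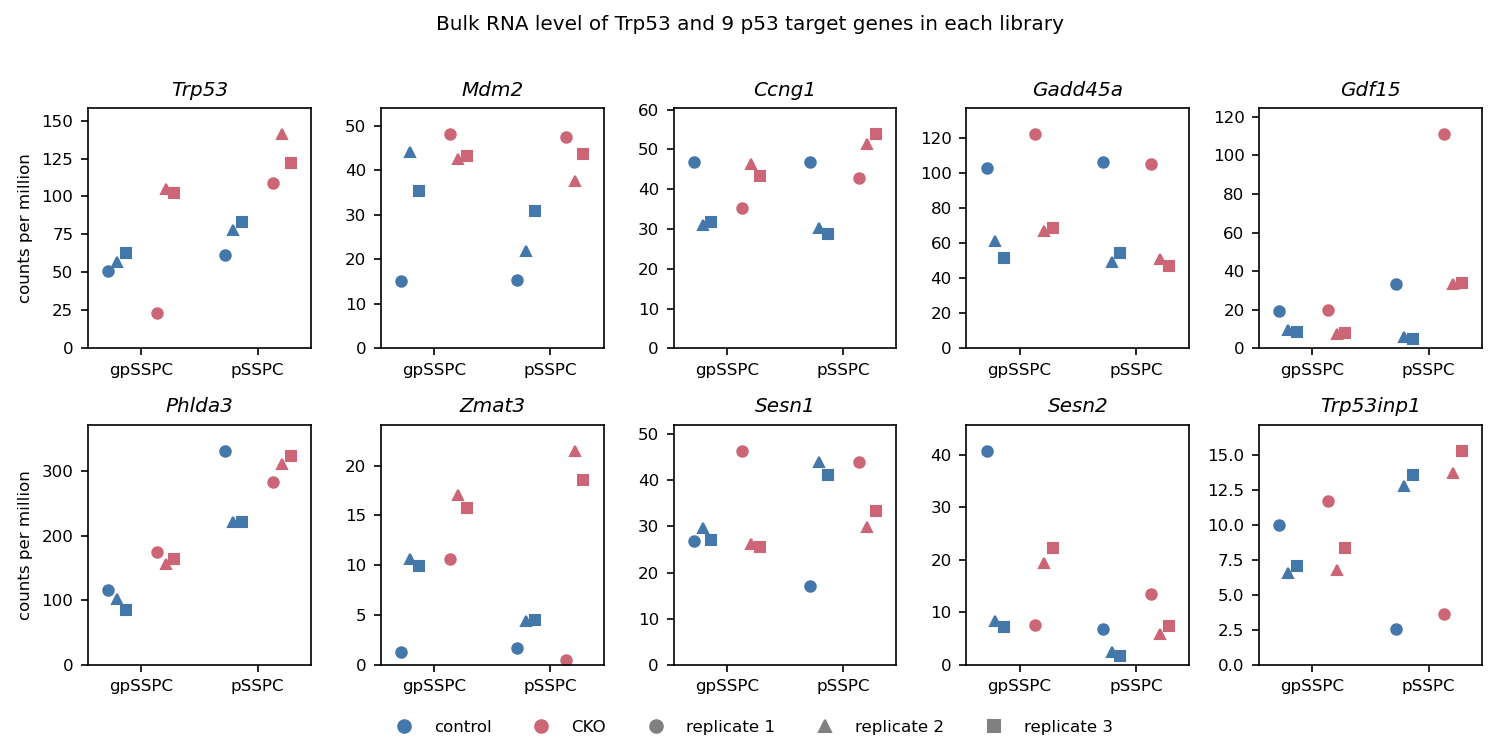
Level of each of the 10 genes in the 12 bulk RNA libraries, in CPM on a linear axis that starts at 0, by population, genotype (colour) and replicate (symbol). Replicates 2 and 3 lie close together in each group, while replicate 1 often lies apart, as for Gdf15, Zmat3 and Sesn2.

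Trp53, the gene for p53 itself, read 51.2, 57.1 and 62.8 CPM in control gpSSPCs and 23.5, 105 and 102 CPM in CKO replicates 1 to 3. The CKO value was thus the lowest of all in replicate 1 and the highest in the other replicates, and the fitted log2 fold change of 0.20 (SE 0.71) had an adjusted p of 1 (edgeR). In pSSPCs Trp53 read 61.4, 78.1 and 83.3 CPM in control and 109, 141 and 122 CPM in CKO. Every CKO library lay above every control there, as it did for 9.13% of all genes in pSSPCs. The mean was 70.8 ± 16.3 CPM in control and 118 ± 17.2 in CKO (SD, n = 2), a log2 fold change of 0.75 (SE 0.62, adjusted p = 1).

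Mdm2, whose product marks p53 for degradation, read 15.2, 44 and 35.3 CPM in control gpSSPCs and 48.1, 42.5 and 43.1 in CKO. The CKO libraries were tightly grouped and the control spread came from replicate 1. In pSSPCs Mdm2 read 15.3, 21.9 and 30.9 CPM in control and 47.5, 37.7 and 43.7 CPM in CKO. There was no overlap, as for 9.13% of all genes in pSSPCs, and the Mdm2 log2 fold change was 1.05 (SE 0.91, adjusted p = 1). Its ratio of CKO to control was above 1 in both replicate pairs of both populations, with log2 ratios of 1.60 and 0.15 in gpSSPCs and 1.57 and 0.57 in pSSPCs. Mdm4, the related p53 inhibitor without ligase activity of its own, read 46.8, 45.6 and 47.6 CPM in control and 72.8, 64.3 and 74.9 CPM in CKO gpSSPCs. These were again without overlap, as for 6.54% of all genes in gpSSPCs, but with an adjusted p of 1. The pSSPC groups of Mdm4 overlapped.

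Ccng1, which encodes cyclin G1, an Mdm2 partner, read 46.8, 30.9 and 31.8 CPM in control and 35.2, 46.4 and 43.3 CPM in CKO gpSSPCs. In pSSPCs it read 46.9, 30.3 and 28.8 CPM in control and 42.8, 51.4 and 53.8 CPM in CKO. In both populations the CKO value was lower in replicate 1 and higher in replicates 2 and 3. Gadd45a, a sensor of growth arrest and DNA damage, read 103, 61.2 and 51.7 CPM in control and 122, 67.1 and 68.7 CPM in CKO gpSSPCs, and 106, 49 and 54.5 CPM in control and 105, 50.8 and 46.9 CPM in CKO pSSPCs. Replicate 1 was about as high in both genotypes, and its distance from the other replicates was wider than any distance between genotypes. The annotated gene overlaps an antisense transcript, E230016M11Rik, and the strand setting of the counting is not given in the sources used here, so its counts are uncertain.

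Phlda3, a small pleckstrin homology protein that restrains Akt signaling, read 116, 102 and 84.9 CPM in control gpSSPCs and 175, 156 and 164 CPM in CKO. All 3 CKO libraries lay above all controls, as for 6.54% of all genes in gpSSPCs, and the log2 fold change was 0.70 (SE 0.44, adjusted p = 1). The means were 102 ± 14.8 CPM in control and 165 ± 6.51 CPM in CKO (SD, n = 2). With the replicate as a block the unadjusted p was 0.0198 (edgeR), and the adjusted p stayed at 1. Under that block 3.85% of all genes had an unadjusted p under 0.05 in either direction. In pSSPCs the gene read 332, 222 and 221 CPM in control and 283, 312 and 324 CPM in CKO, so that replicate 1 was lower and replicates 2 and 3 higher in CKO.

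Gdf15, a secreted stress cytokine of the TGF-beta superfamily, was the gene with the largest fitted change of the set in pSSPCs. It read 33.3, 5.93 and 4.86 CPM in control and 111, 33.2 and 33.8 CPM in CKO pSSPCs. Each CKO library was several times above the control of the same number, while the control of replicate 1 was about equal to the CKO values of replicates 2 and 3, so that the groups overlapped. The log2 fold change was 1.98 (SE 1.07, unadjusted p = 0.097, adjusted p = 1, edgeR) and ranged from 0.91 to 3.74 when 1 sample was left out. With the replicate block it was 2.22 with an unadjusted p of 0.00917 and an adjusted p of 0.591, where 5.24% of all genes had an unadjusted p under 0.05. In gpSSPCs Gdf15 read 19.5, 9.68 and 8.51 CPM in control and 20, 7.54 and 8.09 CPM in CKO, with no shift between the genotypes beyond that between replicates. The difference of the CKO effect between gpSSPCs and pSSPCs was -2.0 on the log2 scale (SE 1.42, unadjusted p = 0.191, adjusted p = 1), and -2.23 with the block (adjusted p = 0.938). Summed myeloid markers, whose cells can also express this cytokine, were 173 CPM in CKO pSSPC replicate 1 and 15.6 to 37.1 CPM in the other 5 pSSPC libraries. In replicates 2 and 3, where those markers read 22.2 and 15.6 CPM in control and 37.1 and 31.9 in CKO, the log2 ratio of the summed pair was 2.45. Of the 8 myeloid markers, Lyz2 and Cd74 had ratios of like size there. The log2 ratio was 2.71 for Lyz2 (0.312 and 0.195 CPM in control and 7.26 and 6.97 CPM in CKO). It was 2.53 for Cd74 (4.06 and 0.973 CPM in control and 18.4 and 16.6 CPM in CKO). The other markers had 1.4 (Csf1r), 0.07 (Ctss), -0.17 (Itgam), -0.22 (S100a9), -0.31 (Ptprc) and -1.32 (S100a8). In the fit that also holds replicate 1, the 5 tested markers had a median log2 fold change of 2.76. Ptprc and Itgam were at 0 in 5 of the 6 pSSPC libraries. For the bulk sort the study stained the cells for CD31, CD45 and Ter-119, of which CD45 marks myeloid cells. The part of myeloid cells in the Gdf15 values was not tested.

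Zmat3, an RNA-binding zinc finger protein that acts in splicing downstream of p53, read 1.3, 10.6 and 9.93 CPM in control and 10.6, 17.1 and 15.7 CPM in CKO gpSSPCs. In pSSPCs it read 1.71, 4.37 and 4.48 CPM in control and 0.522, 21.5 and 18.6 CPM in CKO. Replicates 2 and 3 were higher in CKO in both populations, while in pSSPC replicate 1 the gene was nearly absent from both genotypes. Trp53inp1, which encodes a nuclear protein that promotes p53 activity and autophagy, read 9.97, 6.56 and 7.09 CPM in control and 11.7, 6.75 and 8.36 CPM in CKO gpSSPCs, and 2.56, 12.8 and 13.6 CPM in control and 3.66, 13.7 and 15.3 CPM in CKO pSSPCs. Its log2 ratio was between 0.12 and 0.39 in all 4 replicate pairs, a small shift beside the spread between replicates.

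The sestrins Sesn1 and Sesn2, stress proteins that restrain mTORC1, did not move alike. Sesn1 read 26.9, 29.7 and 27 CPM in control and 46.4, 26.2 and 25.6 CPM in CKO gpSSPCs, and 17.1, 44 and 41.1 CPM in control and 43.9, 29.9 and 33.3 CPM in CKO pSSPCs. In both populations it was higher in CKO in replicate 1 and lower in replicates 2 and 3. Sesn2 read 40.8, 8.43 and 7.3 CPM in control and 7.63, 19.5 and 22.2 CPM in CKO gpSSPCs, the reverse order of replicates. In pSSPCs Sesn2 read 6.82, 2.5 and 1.75 CPM in control and 13.6, 5.87 and 7.32 CPM in CKO, higher in CKO within every replicate, with a log2 fold change of 1.26 (SE 1.70, adjusted p = 1). Sesn2 overlaps Gm12981 on the same strand, so reads may be shared between them.

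**Figure D2:**
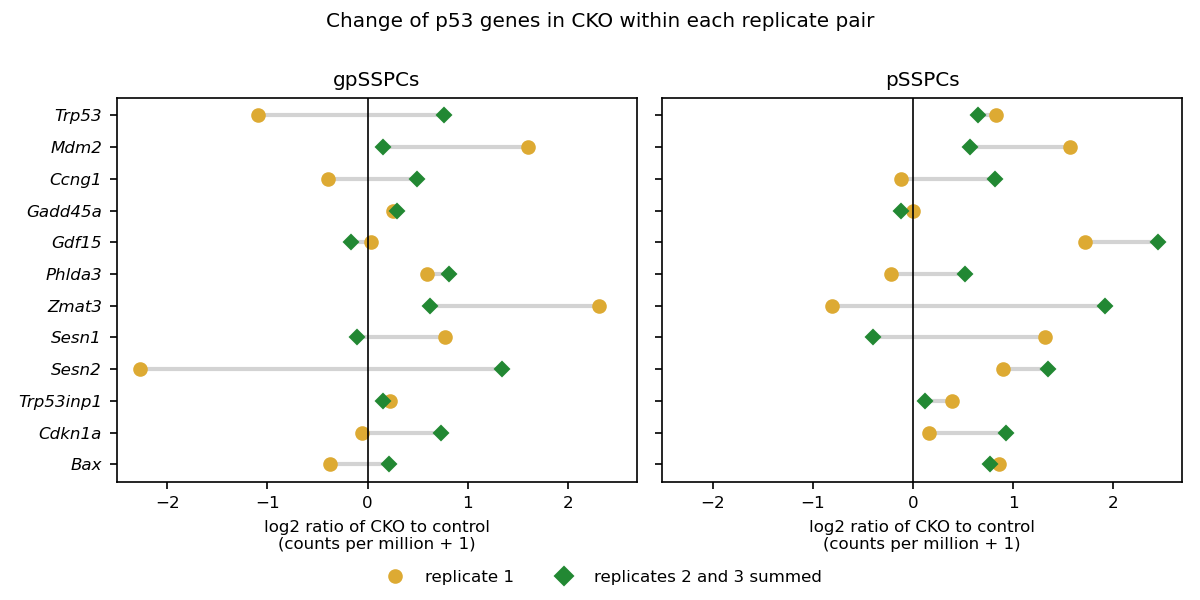
Log2 ratio of CKO to control within each replicate pair, from CPM with a pseudocount of 1, for the 10 genes and for Cdkn1a and Bax in gpSSPCs and pSSPCs (circle, replicate 1, and diamond, replicates 2 and 3 summed). Trp53 and Sesn2 in gpSSPCs and Zmat3 in pSSPCs lie on opposite sides of 0 in the 2 pairs, while Gdf15 in pSSPCs lies at 1.72 and 2.45.

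Read over the whole set, the 10 genes summed to 430, 360 and 326 CPM in control and 500, 494 and 501 CPM in CKO gpSSPCs. In pSSPCs the sum was 622, 470 and 484 CPM in control and 760, 697 and 699 CPM in CKO. The CKO sums lay above the controls in both populations. Phlda3 made up the largest share of the sum in all 12 libraries. In pSSPC replicate 1, however, Phlda3 was lower in CKO (332 and 283 CPM), and Gdf15 (33.3 and 111), Trp53 (61.4 and 109) and Mdm2 (15.3 and 47.5) were higher. Marker sums of other cell types differed between the genotypes too, in both directions. Summed erythroid markers were 21.2, 6540 and 6710 CPM in control and 18.2, 2810 and 2960 CPM in CKO gpSSPCs, lower in CKO within each replicate. Summed endothelial markers were 44.2, 45.9 and 44.4 CPM in control and 122, 63.1 and 65.3 CPM in CKO gpSSPCs, with Plvap the most abundant of the 7 markers and the defining Cldn5 and Emcn at 0 in replicate 1 of both genotypes. In pSSPCs they were 124, 132 and 128 CPM in control and 127, 183 and 182 CPM in CKO, with Pecam1, Cldn5 and Emcn at 0 in replicate 1 of both genotypes. Rgs5, the most abundant of the 7 pericyte markers, read 36.7, 74.6 and 88.5 CPM in control and 103, 146 and 145 CPM in CKO pSSPCs. The pericyte sum was 71.6, 131 and 143 CPM in control and 110, 213 and 216 CPM in CKO pSSPCs, higher in CKO within each replicate, with Tagln, Myh11 and Kcnj8 at 0 in replicate 1 of both genotypes. In gpSSPCs the basophil and mast cell sum was 0, 24.7 and 19.9 CPM in control and 0, 113 and 134 CPM in CKO, with Mcpt8 the most abundant of the 5 markers and Ms4a2 and Fcer1a at 0 in all 6 libraries. The bulk sort included stains for Ter-119, CD31 and CD45, which mark erythroid, endothelial and blood cells. The part of these other cell types in the p53 sums was not tested.

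Cdkn1a read 1270, 758 and 763 CPM in control and 1220, 1260 and 1260 CPM in CKO gpSSPCs. In pSSPCs it read 1090, 764 and 740 CPM in control and 1210, 1440 and 1450 CPM in CKO, without overlap, as for 9.13% of all genes there. The log2 fold change in pSSPCs was 0.56 (SE 0.45, adjusted p = 1, edgeR; 0.32 to 0.81 when 1 sample was left out), and with the replicate block the unadjusted p was 0.00824 and the adjusted p 0.591. In both populations the control of replicate 1 was already near the CKO level. Bax, which encodes an effector of mitochondrial apoptosis, read 172, 131 and 114 CPM in control and 311, 202 and 210 CPM in CKO pSSPCs, also without overlap (log2 fold change 0.85, SE 0.55, adjusted p = 1). In gpSSPCs its groups overlapped, at 231, 155 and 131 CPM in control and 177, 155 and 166 CPM in CKO.

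The other genes of the pathway were read from fixed lists. None of the tested genes in these 4 lists passed an adjusted or an unadjusted p of 0.05 in either genotype contrast without the replicate block. With the block, Cdkn1a in pSSPCs, which is in the cell cycle list, had an unadjusted p under 0.05, as given above. Of the other cell cycle targets, 4 of 6 tested genes were above 0 in gpSSPCs (median 0.33) and 3 of 5 in pSSPCs (median 0.56), and 3 and 2 of them, respectively, had all CKO libraries above all controls, where 6.54% and 9.13% of all genes did. Of the other apoptosis targets, 4 of 9 were above 0 in gpSSPCs (median -0.12) and 6 of 10 in pSSPCs (median 0.24), and 1 and 2 had all CKO libraries above all controls. Aen, a p53-induced nuclease of apoptotic DNA breakdown that was picked out after its values were seen, read 5.97, 1.87 and 2.72 CPM in control and 39.2, 16.5 and 16.2 CPM in CKO pSSPCs, and its log2 fold change was 2.79 (SE 1.37, unadjusted p = 0.0703, adjusted p = 1). Of the repair and metabolism targets, 7 of 11 were above 0 in each population, with medians of 0.12 and 0.42. All CKO libraries lay above all controls for 1 of these in gpSSPCs and 3 in pSSPCs, and below for 1 and 2, while 8.16% of all genes lay below in gpSSPCs and 8.74% in pSSPCs. Of the regulators of p53, 5 of 13 were above 0 in gpSSPCs (median -0.22) and 7 of 14 in pSSPCs (median -0.02). All CKO libraries lay above all controls for 2 of the regulators and below for 0 in gpSSPCs, and above for 1 and below for 3 in pSSPCs.

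Lists for other programs were read in the same libraries. Genes of the stress response driven by ATF4, a factor that also activates Sesn2 and Gdf15, had medians of 0.42 in gpSSPCs and 0.39 in pSSPCs, each with 7 of 9 tested genes above 0 and none past the test. The immediate early and heat shock genes that rise during tissue dissociation had medians of -0.11 and -0.25, and summed to 16100, 17400 and 16600 CPM in control and 18200, 15600 and 14700 CPM in CKO gpSSPCs. In pSSPCs they summed to 15200, 13900 and 12900 CPM in control and 11900, 12400 and 11400 CPM in CKO, where every CKO library was below every control and 10 of the 12 genes were below 0. Chondrocyte markers, with Col2a1 the most abundant, summed to 42700, 27600 and 28200 CPM in control and 24100, 14600 and 14400 CPM in CKO gpSSPCs, and 7 of the 9 markers lay below control in every CKO library although none passed the adjusted test. PMSC markers summed to 18500, 16400 and 17000 CPM in control and 14800, 31000 and 34700 CPM in CKO pSSPCs. Prg4, which encodes lubricin, carried the higher sums, at 2370, 8450 and 8670 CPM in control and 7420, 25900 and 29500 CPM in CKO. Of the 9 PMSC markers, 6 were below 0 in pSSPCs (median -0.5) and 5 lay below control in every CKO library. In bulk RNA, fewer cells of a type and less RNA per cell cannot be told apart, and the part of these shifts in the p53 values was not tested.

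Between the populations, 1 gene of the set differed at an unadjusted p under 0.05, and 0.372% of all 13173 genes passed the adjusted test, with 3.84% higher and 4.95% lower in gpSSPCs at the unadjusted threshold. That gene was Phlda3. Its pSSPC libraries, 221 to 332 CPM, lay above all gpSSPC libraries, 84.9 to 175 CPM, in both genotypes. The log2 difference of gpSSPCs to pSSPCs was -1.14 (SE 0.30), with an unadjusted p of 0.00379 and an adjusted p of 0.162, and the adjusted p was 0.001 with the replicate block, under which 908 genes passed in place of 49, and 0.00982 by DESeq2. Of the other 9 genes, Sesn2 had a log2 difference of 1.52 (SE 0.85, adjusted p = 0.723) and Gdf15 of -1.39 (SE 0.72, adjusted p = 0.67), and both passed the threshold only where each library was taken as a sample and blocked by replicate (adjusted p = 0.0278 and 0.0211, edgeR). Of the other targets, Btg2, an antiproliferative p53 target that is also an immediate early gene, was higher in gpSSPCs by 1.39 on the log2 scale (SE 0.32, adjusted p = 0.109, and 1.51e-07 with the block), at 971 to 1710 CPM against 406 to 730 CPM. Ddit4, a p53 and stress target that restrains mTORC1, was at 84.5 to 104 CPM in gpSSPCs and 29.2 to 54.2 CPM in pSSPCs (log2 difference 1.32, SE 0.37, adjusted p = 0.202, and 0.0153 with the block). Ephx1, a detoxifying epoxide hydrolase, had the opposite order, 107 to 154 CPM against 223 to 308 CPM (-1.08, SE 0.30, adjusted p = 0.201, and 0.00194 with the block). The kinase gene Plk2 (-1.37), the death receptor gene Fas (-1.43) and the stress factor gene Atf3 (0.84) had unadjusted p of 0.0354, 0.0433 and 0.0415 and did not pass the adjusted test of edgeR. For the DNA repair nuclease gene Ercc5 the CKO effect differed between the populations at an unadjusted p of 0.0176 (log2 3.52, SE 1.23, adjusted p = 1), with 9.54, 4.06 and 4.86 CPM in control and 34.1, 17.1 and 18.0 CPM in CKO gpSSPCs against 77.6, 20.9 and 21.2 CPM in control and 15.1, 14.2 and 17.1 CPM in CKO pSSPCs.

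Single-cell RNA allowed the same genes to be read within marker-defined classes, with 1 library per genotype and therefore no test. Of 2088 barcodes in the 16-week control and 2373 in the CKO, 2068 and 2362 cells were kept, with medians of 1427.5 and 1274 UMIs. CPM here are UMIs of a gene over all UMIs of the class in that library, scaled to 1000000. The libraries shared 10 barcodes. At 8 weeks 993 cells of the Prx1-Cre and 782 of the Osx-Cre library were kept, with medians of 1043 and 925.5 UMIs. The 16-week cells fell into BMSC-like cells (bone marrow stromal, Cxcl12 and Lepr), OB-like cells (osteoblast, 187 control and 175 CKO cells), PMSC-like cells (periosteal mesenchymal, 61 and 33), chondrocyte-like cells (60 and 18) and pericyte-like cells (17 and 33), while 45 cells led by erythroid genes were left unnamed. The BMSC-like class consisted of a deeper cluster (1103 control and 1170 CKO cells, median 1859 UMIs) and a shallower one (617 and 911 cells, median 793.5 UMIs). The intervals below are 95% exact intervals and cover counting error only, not the difference between mice.

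Zmpste24 checked the labels of this pair. In BMSC-like cells it read 19.5 CPM (14.6 to 25.5) in control and 3.0 (1.37 to 5.69) in CKO, a ratio of 0.154 (0.0667 to 0.314). In OB-like, PMSC-like and chondrocyte-like CKO cells it was listed at 0 UMIs, which allows up to 14.7, 57.1 and 45.3 CPM, with 6, 4 and 6 UMIs in the control cells.

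In BMSC-like cells the 10 genes summed to 338 CPM in control and 295 in CKO, and 5 of the 10 were higher in CKO. In the same cells summed erythroid markers were 4810 CPM in control and 530 in CKO, and summed myeloid markers 193 and 36 CPM. The study had sorted these suspensions as negative for CD45, Ter119 and CD31. The part of erythroid and myeloid RNA in the p53 values was not tested. Of the 9 members with at least 20 UMIs over both libraries, none was at least 1.5-fold higher, where 4.44% of all 10392 genes were. Among them 1 (Sesn2, 16 and 7 UMIs) was at least 1.5-fold lower, where 7.46% of all genes were. In either size, 4 of the 9 were higher, namely Mdm2, Gadd45a, Zmat3 and Sesn1, against 42.3% of all genes. Trp53 read 63.3 CPM in control and 60.3 in CKO, a ratio of 0.953 (0.769 to 1.18). Mdm2 read 22.4 and 25.3, a ratio of 1.13 (0.795 to 1.61), and Gadd45a 34.6 and 36.3, a ratio of 1.05 (0.789 to 1.4). For these regulators and sensors the values of both libraries lay within each other's counting error.

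Phlda3 was the only member whose intervals lay apart in BMSC-like cells. It was also the most abundant member there, and the share of all genes with intervals apart was not computed. Phlda3 read 161 CPM (146 to 177) in control and 121 (109 to 134) in CKO, a ratio of 0.752 (0.653 to 0.867). The value was lower in CKO in both BMSC-like clusters, at 169 and 133 in the deeper and 132 and 86.7 in the shallower one, where the intervals overlapped. After thinning to 1000 UMIs per cell it was 162 (140 to 186) in control and 122 (104 to 143) in CKO, and these intervals overlapped too. The bulk gpSSPC libraries, from other cells at another age, had shown the opposite order. Ccng1 (ratio 0.854, 0.569 to 1.28), Zmat3 (1.36, 0.721 to 2.62), Sesn1 (1.02, 0.618 to 1.68) and Trp53inp1 (0.851, 0.504 to 1.43) had intervals that span 1. Gdf15 was barely detected, with 2 UMIs in control and 4 in CKO BMSC-like cells, 3 and 0 in PMSC-like cells and none in OB-like cells, too few for a comparison.

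**Figure D3:**
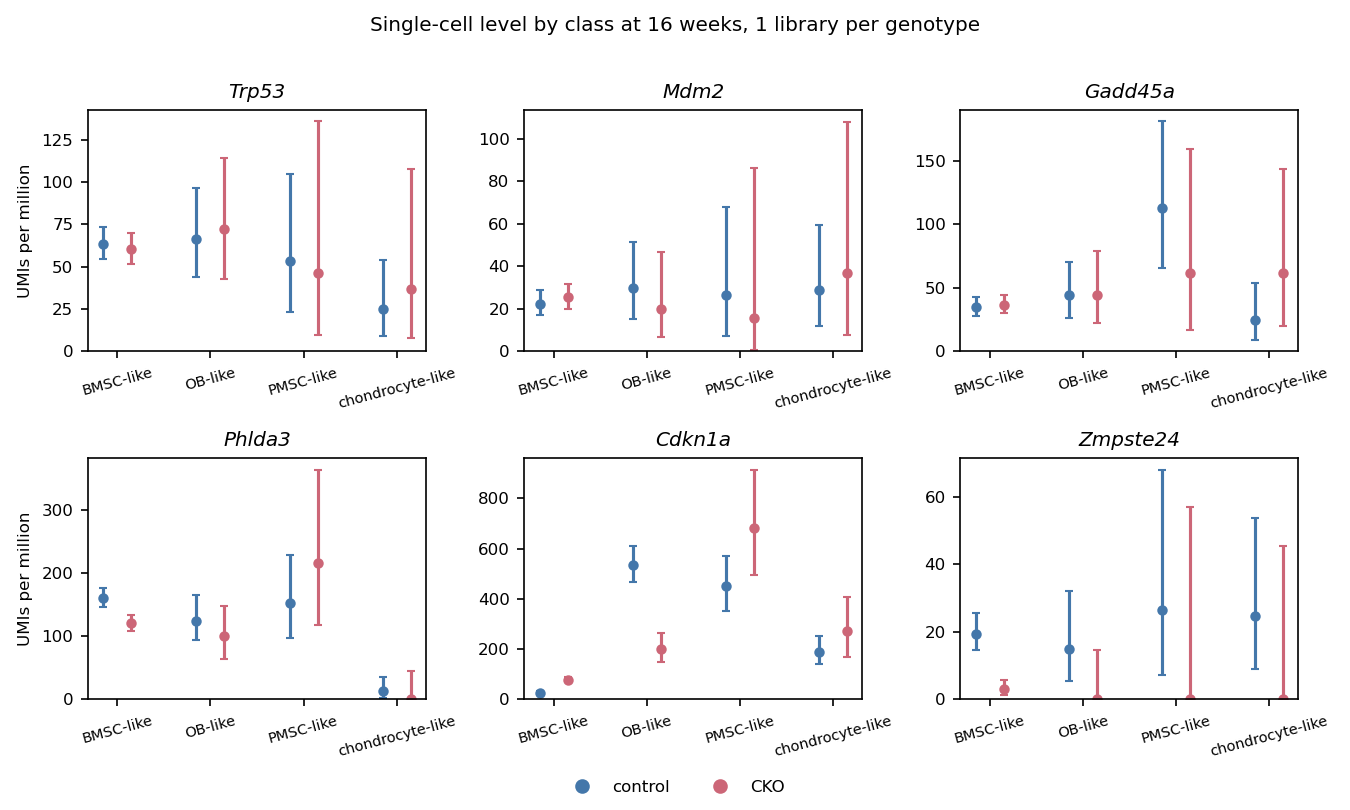
CPM, on linear axes that start at 0, for 4 genes of the set and for Cdkn1a and Zmpste24 in BMSC-like, OB-like, PMSC-like and chondrocyte-like cells at 16 weeks, control and CKO, 1 library per genotype, with 95% exact Poisson intervals. Zmpste24 is lower in CKO in BMSC-like cells and at 0 in the other 3 CKO classes shown, where its intervals overlap those of control, Trp53 and Mdm2 overlap in each class, and Cdkn1a is higher in CKO in BMSC-like and lower in OB-like cells.

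Cdkn1a, the reference outside the set, differed by class. In BMSC-like cells it read 26.9 CPM (21.0 to 33.8) in control and 78.6 (68.9 to 89.3) in CKO, a ratio of 2.93 (2.24 to 3.86). Both clusters showed it, with 28.7 and 91.4 in the deeper and 19.8 and 40 in the shallower one. In OB-like cells the order was reversed, at 534 (465 to 610) in control and 200 (148 to 264) in CKO, a ratio of 0.375 (0.27 to 0.511). Without the cells of most UMIs the OB-like ratio was 0.575. In PMSC-like cells the values were 451 and 681, a ratio of 1.51 (1.01 to 2.24), which was 1.49 (0.977 to 2.24) without the cluster led by Fos described next. Also without that cluster, the ratio was 1.61 (0.962 to 2.64) in chondrocyte-like cells, from 46 and 27 UMIs. In pericyte-like cells it was 1.9 (0.671 to 6.57), from 5 and 17 UMIs. Btg2 and Ddit4 went with Cdkn1a in BMSC-like cells, with ratios of 2.65 (2.2 to 3.19) and 3.64 (2.74 to 4.88), whereas Bax read 187 and 173. Other listed targets did not all rise there. The cell cycle targets, with Cdkn1a and Btg2, summed to 99.7 CPM in control and 249 in CKO. The apoptosis targets summed to 377 and 360, and the repair and metabolism targets, with Ddit4, to 703 and 740. Without the cluster led by Fos, ratios were 0.712 (0.536 to 0.941) for Ephx1 and 0.651 (0.364 to 1.14) for Ercc5. They were 1.04 (0.659 to 1.63) for Fas and 1.24 (0.316 to 5.14) for Plk2. In OB-like cells, without the cluster led by Fos, Ddit4 lay on the other side from Cdkn1a, with a ratio of 1.82 (1.07 to 3.11). Btg2 had 0.553 (0.228 to 1.22) there. In the same setting Ddit4 had 2.57 (1.49 to 4.4) in chondrocyte-like and 3.89 (0.922 to 18.7) in PMSC-like cells.

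The dissociation response also differed between the libraries. Its 12 genes summed to 2140 CPM in control and 5950 in CKO BMSC-like cells, with Fos at 251 and 1240, and to 2570 and 2130 in OB-like cells. The sums were 7300 and 6950 in PMSC-like, 21900 and 18100 in chondrocyte-like and 6310 and 9060 in pericyte-like cells. Its genes did not go one way in PMSC-like cells, where Fos read 1190 CPM in control and 1800 in CKO (ratio 1.51, 1.19 to 1.92) and Dusp1 624 and 155 (ratio 0.248, 0.115 to 0.477). A finer clustering gave a cluster led by Fos and Fosb that held 166 of 1654 (10%) control and 392 of 2026 (19.3%) CKO BMSC-like cells. Without that cluster, an alternative added after seeing the data, the Cdkn1a ratio was 2.2 (1.59 to 3.05), the Btg2 ratio 2.04, the Ddit4 ratio 3.9 (2.77 to 5.59) and the Phlda3 ratio 0.753, while the Fos ratio was 4.96 with the cluster and 6.88 without it. The part of this response in the Cdkn1a, Btg2 and Ddit4 values was not tested further.

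In the smaller classes the counts were too few to separate the genotypes for most members. In OB-like cells the set summed to 305 and 300 CPM from 124 and 75 UMIs. Only 3 members had at least 20 UMIs there (Trp53, Gadd45a and Phlda3). None was 1.5-fold higher, where 15.5% of 3829 genes were, or 1.5-fold lower, where 11.5% were, and 1 of the 3 (Trp53, 66.4 and 72.0) was higher, against 55% of all genes. In PMSC-like cells the set summed to 398 and 542 from 60 and 35 UMIs, in chondrocyte-like cells to 152 and 184 from 37 and 15 UMIs (185 and 167 after thinning to 1000 UMIs per cell, and 170 and 127 without the cells of most UMIs, so that the order turns), and in pericyte-like cells to 1040 and 534 from 26 and 24 UMIs. Summed tenocyte markers in PMSC-like cells were 405 CPM in control and 1530 in CKO, with Fmod at 285 and 975, and their part in the PMSC-like values of the set and of Cdkn1a was not tested.

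Phlda3 also differed across classes. In the 8-week Prx1-Cre library it read 249 CPM (181 to 334) in PMSC-like, 126 (97.4 to 160) in BMSC-like, 75.9 (47 to 116) in OB-like and 13.1 (5.26 to 26.9) in chondrocyte-like cells. The Osx-Cre library gave 150 (118 to 189) in BMSC-like, 102 (65.9 to 150) in OB-like and 33.2 (15.2 to 63) in chondrocyte-like cells. The 16-week control repeated the low chondrocyte-like value, 12.4 from 3 UMIs, beside 161 in BMSC-like and 153 in PMSC-like cells. At 16 weeks the highest value was that of pericyte-like cells, 599 CPM from 15 UMIs in the 16-week control and 267 from 12 UMIs in CKO, a ratio of 0.446 (0.191 to 1.02). The intervals of chondrocyte-like cells lay below those of BMSC-like cells in each of these libraries. This is the same side as in bulk RNA, where Phlda3 was lower in the growth plate population with its higher cartilage markers. In the 8-week Prx1-Cre library Trp53 read 43.0 (27.2 to 64.5) in chondrocyte-like, 58.2 (39.5 to 82.6) in BMSC-like and 54.2 (30.4 to 89.5) in OB-like cells. These intervals overlap one another. In the 16-week control, however, Trp53 too was lower in chondrocyte-like cells, at 24.7 CPM from 6 UMIs beside 63.3 CPM in BMSC-like cells.

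ATAC-seq peaks, the regions that the authors' peak caller found accessible in each library, were read within each gene and 10 kb on either side. The 12 libraries held 59186 to 101564 peaks from 12250713 to 46756821 tags, with replicate 3 the deepest in each group. Peaks of the 6 libraries of a population were merged into regions, of which 61 of 133488 in gpSSPCs and 51 of 116736 in pSSPCs fell at the 10 genes. In gpSSPCs 22 of the 61 (36.1%) had a peak in all 6 libraries, against 34.9% of all regions. In pSSPCs 24 of the 51 (47.1%) did, against 37.2%.

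Regions with a peak in all 3 libraries of a genotype and in none of the other were few at these genes. In gpSSPCs no region was present in CKO alone, where 0.0449% of all regions were, and 1 was present in control alone, where 1.34% were. It lay 7844 bases downstream of the Gadd45a start, beyond the gene (chr6:67029405-67029821, mm10), with −log10 q values of 3.88, 4.32 and 7.51 in the controls. In pSSPCs 2 regions were present in CKO alone, where 2.82% of all regions were, and none in control alone, where 0.118% were. They lay over the last exon of Sesn2 (chr4:132491659-132492727) with −log10 q values of 5.59, 15.2 and 13.3 in CKO, and upstream of Trp53inp1, centred -8419 bases from its start (chr4:11147670-11148355) with 3.30, 8.54 and 12.3. Presence in 3 against 0 libraries cannot go below p = 0.10 in an exact permutation test (two-sided), so no p is given. The counts of 1 and 2 were of the size that the shares over all regions give for 61 and 51 regions, and leaving out a library gave 1 to 3 regions in gpSSPCs and 2 to 7 in pSSPCs. The 7 regions, without control replicate 3, were 13.7% of the 51 against 7.46% of all regions, and without CKO replicate 1 there were 5 of 49 (10.2%) against 8.75%. In gpSSPCs there were 3 of 59 (5.08%) against 4.52% without control replicate 3, and 3 of 60 (5.0%) against 2.31% without CKO replicate 3. CKO pSSPC libraries had more peaks than controls of the same number in each replicate, for instance 101564 against 79692 in replicate 3, and gpSSPC CKO libraries had fewer, 68916 against 88051. The part of the number of peaks in these calls was not tested.

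**Figure D4:**
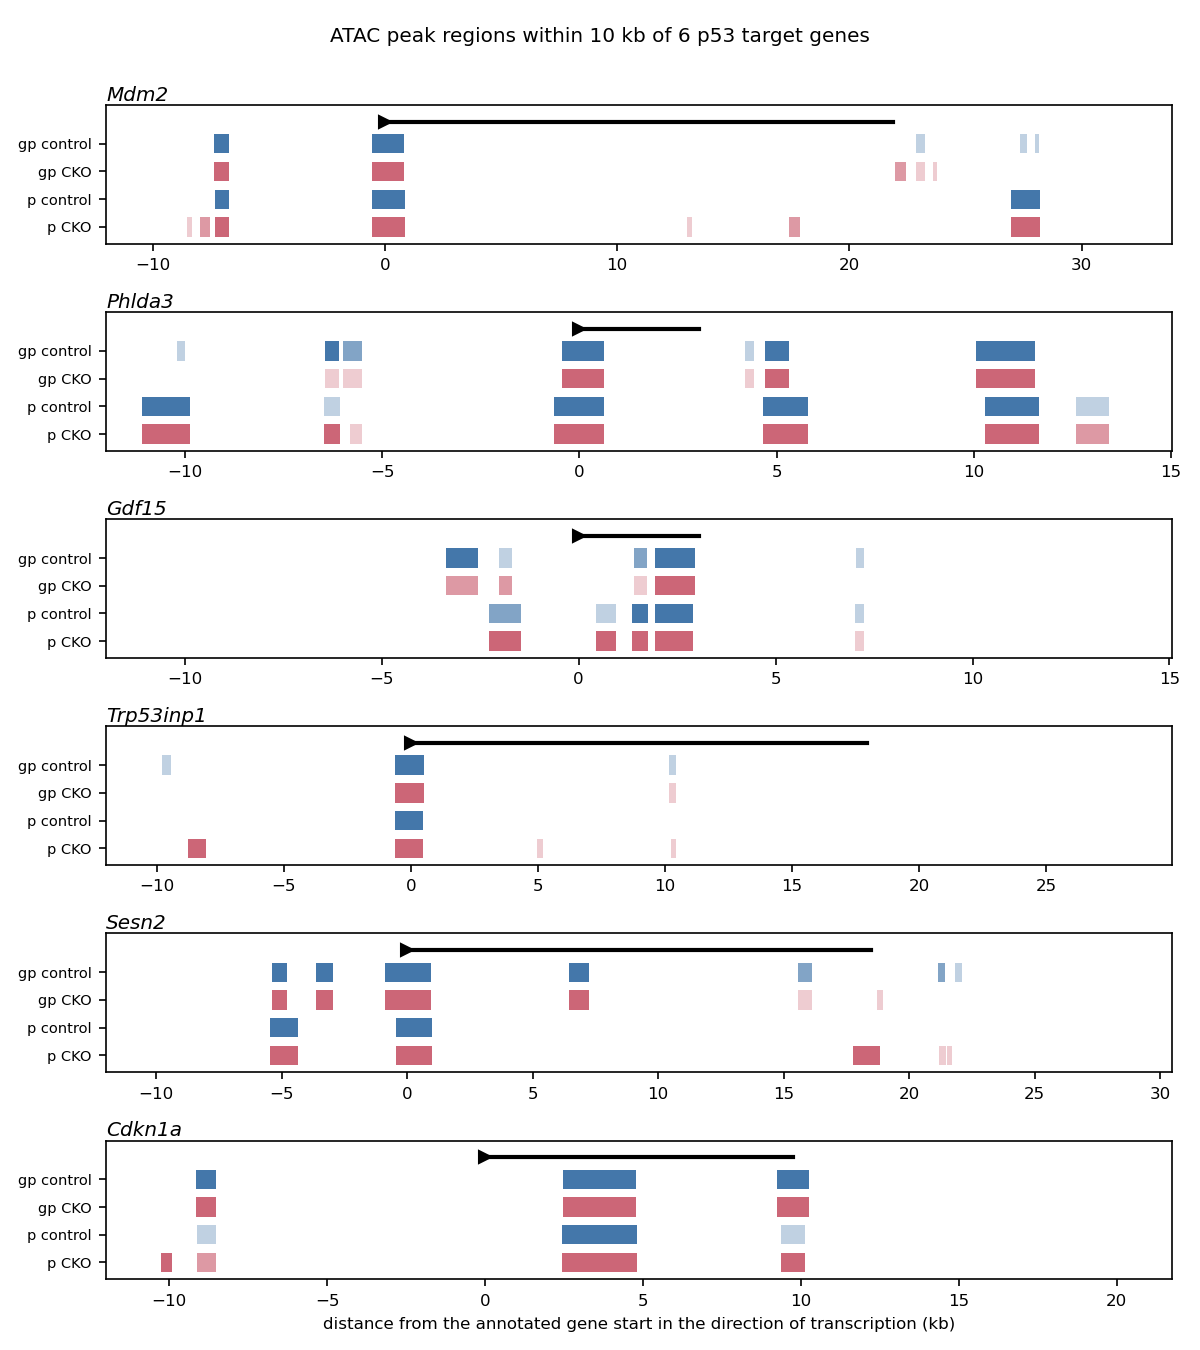
Merged ATAC peak regions within 10 kb of Mdm2, Phlda3, Gdf15, Trp53inp1, Sesn2 and Cdkn1a against distance from the gene start in kb along the direction of transcription, by population and genotype (blue, control, and red, CKO), where a fuller shade stands for a peak in more of the 3 libraries and the black line with a triangle for the gene. Start site regions are filled in all groups for Mdm2, Phlda3, Trp53inp1 and Sesn2, whereas Gdf15 has none at its start, and the upstream region of Trp53inp1 and the region over the end of Sesn2 are filled in the pSSPC CKO row and empty in the pSSPC control row, with a peak of 1 gpSSPC CKO library at the end of Sesn2.

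For 9 of the 10 genes the region at the annotated start had a peak in all 6 libraries of both populations, except that Trp53 had none in CKO gpSSPC replicate 2. Peak height there, as pileup per 1000000 tags, was 3.06, 2.55 and 2.31 in control and 2.47, 0 and 1.51 in CKO gpSSPCs for Trp53, and 4.45, 3.18 and 3.22 in control and 3.24, 4.04 and 2.44 in CKO pSSPCs. At Mdm2 it was 4.72, 5.72 and 3.52 in control and 5.72, 6 and 2.89 in CKO gpSSPCs, and 5.02, 4.90 and 3.75 in control and 4.58, 6.48 and 3.14 in CKO pSSPCs. The height was often lowest in the deep replicate 3, and the genotypes overlapped at both genes, although Trp53 in gpSSPCs was lower in CKO within each replicate. At Phlda3 the height was 5.03, 4.61 and 2.34 in control and 4.25, 3.96 and 1.56 in CKO gpSSPCs. It was lower in CKO within each replicate, while the Phlda3 RNA there was higher in CKO. In pSSPCs the mean Phlda3 height was 5.17 in control and 5.23 in CKO. Mean heights in control and CKO gpSSPCs were 7.3 and 7.29 for Ccng1, 8.64 and 8.87 for Gadd45a and 2.79 and 2.86 for Zmat3. They were 6.68 and 6.45 for Sesn1, 7.11 and 6.62 for Sesn2 and 5.69 and 6.49 for Trp53inp1. The share of all regions that were lower in CKO within each replicate was not computed.

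The promoter windows described at the beginning were read against these peaks. Of the 10 windows, 7 in gpSSPCs and 8 in pSSPCs overlapped a peak in all 6 libraries, against 42.6% and 41.5% of all promoter windows, and the Trp53 window overlapped one in 5 gpSSPC and all 6 pSSPC libraries. Both Gdf15 windows had no peak in any library, although its pSSPC RNA had the largest fitted difference, and its regions with a peak in all 6 pSSPC libraries lay in the gene body. The upstream Cdkn1a window, with the full site printed above, had no peak in any library of either population, whereas the window at its other start had one in all 12. A peak upstream, centred -10084 bases from that first start (chr17:29080725-29081060) was present in the 3 CKO and in no control pSSPC library, with −log10 q values of 12.1, 22.3 and 16.8, and the region over the end of Cdkn1a had a peak in all 3 CKO and 1 control pSSPC library.

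After merging all 12 libraries, 74 regions fell at the 10 genes. Of these, 4 had a peak in all 6 gpSSPC libraries and no pSSPC library, where 6.11% of all 176547 regions did, and 2 showed the reverse, where 3.6% did. They lay at Trp53 (downstream, gpSSPCs), Zmat3 (1 exonic region in each population), Sesn1 (intronic, pSSPCs) and Sesn2 (intronic and upstream, gpSSPCs). Peaks in all 12 libraries were found for 18 regions (24.3%), against 14.3% of all regions. No region at Phlda3, the gene of the set with the lowest p between the populations in RNA, was present in all libraries of 1 population and none of the other. The nearest to it was a region upstream of Phlda3 (chr1:135755043-135756252), with a peak in all 6 pSSPC libraries and, over part of it, in 1 gpSSPC library.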

How the data were processed

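Bulk RNA tables hold gene counts that the authors made by mapping to mm10 with STAR, counting with HTSeq and removing duplicates by UMI. Single-cell matrices hold UMI counts deposited from Cell Ranger (3.1.0 in the headers). ATAC peaks were called by the authors per library with MACS2 2.2.7.1 at q = 0.05. The deposited peak columns give pileup (a signal never below 0, scaled here to 1000000 tags), fold over background as a ratio and −log10 of p and q. The authors' notes also name Bowtie2, DESeq2, HOMER and bedtools.

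Counts were fitted with edgeR 4.0.16 (quasi-likelihood, TMM, low counts filtered, Benjamini-Hochberg adjustment over all genes tested, threshold 0.05), each population alone for genotype and all libraries for population and interaction. Replicates 2 and 3 were summed, since they differed by no more than sampling noise over genes of 5 to 99 counts, although by more over genes of at least 20 counts (chi-square per degree of freedom 1.59 to 1.92). Same-numbered libraries deviated from their group means together (correlations 0.561 to 0.607). Since replicate 1 stood apart from replicates 2 and 3 in every group, this reflects replicate 1 alone. It cannot tell whether replicate 2 pairs with 2 or with 3. The numbers were taken to pair the samples, as replicate 1 and the summed replicates 2 and 3. The fit was also run on simulated data, but the outcome is not given here and no statement rests on it. CPM are counts scaled to 1000000 per TMM-adjusted library, and pairwise log2 ratios use a pseudocount of 1 CPM. CPM and log2 values compare a gene with itself only.

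Cells with at least 200 genes were clustered with Seurat 5.3.0 (resolution 0.14 at 8 weeks and 0.15 at 16 weeks). A filter on genes in at least 3 cells was set only where cells were picked, and no gene was removed from the counts. Left out of the 2000 variable features were 64 genes, namely the members, the other listed p53 targets and regulators, Ly6a, Nt5e, Acan and Zmpste24. A mixed cluster was clustered again alone, and classes were named from fixed markers. No doublet caller was run, and cells over the 95th percentile of UMIs were left out as an alternative. Counts were summed per class and library. Ratios have exact binomial intervals at 95% and levels exact Poisson intervals. Regions are merged overlapping peaks, assigned to a gene within 10 kb (GENCODE M21, GRCm38, which is mm10). PCR copies remain possible, so intervals cover counting error only.

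The genes named are the 10 of the set, Zmpste24, Cdkn1a, Bax and Mdm4, and, of fixed lists (other p53 targets for cell cycle, apoptosis and repair and metabolism, p53 regulators, ATF4 stress response, dissociation response), up to 3 per direction with the smallest unadjusted p under 0.05, with cell type markers as checks. Aen was outside this rule and was picked out after its values were seen. Fos, Fosb and Dusp1 were outside it too and are named to describe the dissociation response in single cells. The members and lists were chosen with earlier results of these data known. Other processing choices were replicate blocking, each library as a sample, DESeq2 1.42.0, no filter, leaving out libraries, and other cell and peak settings.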

Additional observations from a re-analysis of the deposited data

Results flagged for a closer look

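Cdkn1a in single cells at 16 weeks had a ratio of CKO to control of 2.93 in BMSC-like cells and 1.51 in PMSC-like cells but 0.375 in OB-like cells, and was picked out because the direction differs between classes. With 1 library per genotype the difference between classes was not tested, and the counting intervals of the ratios (2.24 to 3.86, 1.01 to 2.24 and 0.27 to 0.511) leave out the spread between mice. Without the cluster led by Fos, an alternative added after seeing the data, the ratio was 2.2 in BMSC-like and 1.49 (0.977 to 2.24) in PMSC-like cells. In that alternative it was 1.61 (0.962 to 2.64) in chondrocyte-like and 1.9 (0.671 to 6.57) in pericyte-like cells. Without the cells of most UMIs the ratio was 0.575 in OB-like cells.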

How the results depend on the processing

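Of 511 settings of single genes in bulk RNA, 461 kept their direction and side of the threshold, 23 passed it under the alternative alone (all between gpSSPCs and pSSPCs) and 27 changed sign. With the replicate block 12 genes passed the adjusted test in gpSSPCs, 38 in pSSPCs, 2 for the difference between them and 908 between populations (49 without). With each library as a sample 1135 passed between populations, and with each library blocked by replicate 5 in pSSPCs, 13 for the difference and 2937 between populations. DESeq2 gave 1 in gpSSPCs and 519 between populations. Without the filter on low counts 3, 5, 2 and 347 passed. Leaving out 1 sample gave 0 to 16 genes in gpSSPCs, 0 to 93 in pSSPCs, 0 for the difference and 0 to 28 between populations. No member passed a genotype contrast under any of these.

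Changes of sign were as follows on the log2 scale, and their cause was not tested. gpSSPC Trp53 was -0.11 with the block, and gpSSPC Sesn2 0.29 with each library blocked. pSSPC Gadd45a was 0 with each library a sample and 0.02 without the filter, and Mdm4 0 with each library a sample. Leaving out 1 sample, gpSSPC values ranged from -1.27 to 0.91 for Trp53, -0.21 to 0.34 for Ccng1, -0.18 to 0.76 for Gadd45a, -0.81 to 0.61 for Gdf15, -0.06 to 0.74 for Sesn1, -1.65 to 0.91 for Sesn2, -0.09 to 0.48 for Trp53inp1, -0.02 to 0.70 for Cdkn1a and -0.43 to 0.27 for Bax. In pSSPCs they ranged from -0.64 to 0.52 for Gadd45a, -0.11 to 0.43 for Phlda3, -0.18 to 1.18 for Sesn1, -1.18 to 1.89 for Trp53inp1, -0.47 to 1.05 for Mdm4 and -8.07 to 2.17 for Zmpste24. Values that stayed above 0 still moved widely, in pSSPCs from 0.54 to 0.99 for Trp53, 0.68 to 1.56 for Mdm2, 0.07 to 0.69 for Ccng1, 0.91 to 3.74 for Gdf15, 1.21 to 2.65 for Zmat3 and 0.59 to 2.28 for Sesn2, and in gpSSPCs from 0.55 to 0.87 for Phlda3, 0.23 to 1.6 for Mdm2 and 0.4 to 3.36 for Zmat3. pSSPC Cdkn1a ranged from 0.32 to 0.81, Bax from 0.56 to 1.09 and gpSSPC Zmpste24 from -3.14 to -0.01. The difference of the CKO effect on Gdf15 ranged from -3.73 to -0.92. Between populations the ranges were 0.77 to 2.01 for Sesn2, -1.81 to -0.53 for Gdf15, -1.99 to -0.84 for Fas, -1.68 to -0.83 for Plk2 and 0.54 to 1.11 for Atf3. The summed p53 set in chondrocyte-like cells was lower in CKO after thinning (185 and 167 CPM) and without the cells of most UMIs (170 and 127 CPM).

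Of 45 single-cell values 39 kept their call. Members higher in CKO were 2 in chondrocyte-like and 2 in pericyte-like cells after thinning to 1000 UMIs, 1 in chondrocyte-like cells without the cells of most UMIs, and 3 in BMSC-like cells without the Fos-led cluster. The Cdkn1a ratio was 2.2 in BMSC-like cells without that cluster and 0.575 in OB-like cells without the cells of most UMIs. Of ATAC regions in 1 genotype alone, gpSSPCs had 0 with −log10 q of at least 5, among the top 50000 peaks or within 2 kb, and pSSPCs had 1, 0 and 1, and 1 from summits. Leaving out a library gave 1 to 3 (1.69% to 5.08% of regions, against 2.24% to 4.52% of all regions) and 2 to 7 (3.92% to 13.7%, against 3.62% to 8.75%). Depth limits the calls for genes near 1 CPM and for classes under 100 cells.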
